A study of Mus musculus with 4 samples.

Results

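The 44 genes described here encode the machinery with which a cell divides its chromosomes: the cyclins and kinases that drive mitosis, the spindle checkpoint, the kinetochore, the mitotic kinesins and the proteins of the spindle midzone and cleavage furrow. They were chosen by name, as all probe sets whose only gene symbol on the platform is one of the 44. The names, and the other gene lists below, were picked with earlier results of these data known. Their counts and shares therefore describe these arrays and are not an independent test. Of these, 43 genes were measured, with 45 probe sets, among 19938 genes with a single symbol. *Ccnb1* carried no single symbol and is not analysed here. *Kif14* and *Top2a* were each read by a pair of probe sets, and the brighter of the pair represents the gene in counts and medians.

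Whole cochleas were compared on 4 arrays from Affymetrix at embryonic day 15 (E15), of which 2 were from wild-type embryos (replicates 2 and 3) and 2 from *Meis2* mutants (replicates 1 and 2). The mutants carry a floxed *Meis2* gene on both chromosomes and a Cre recombinase under *Pax2* regulatory sequences, which acts in the otic placode and its descendants. Mesenchyme, cartilage and blood of a dissected cochlea have other origins and are part of the same RNA. The labels call the controls wild type and do not say whether they carry the floxed alleles or the Cre. Neither the labels nor the methods say whether the arrays of one genotype came from separate embryos or pools, so p-values measure only the spread between these arrays. Signals are the deposited log2 values, on which a difference of 1 is a 2-fold change. Differences are mutant minus wild type. They were tested by limma, in which each probe set borrows part of its variance estimate from the rest, and p-values were adjusted (Benjamini-Hochberg) across the whole array of 35556 probe sets. A gene is called at an adjusted p under 0.05.

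A dividing cell builds a kinetochore on each centromere, where the inner layer sits on chromatin that holds the histone variant Cenpa and the outer layer grips the ends of spindle microtubules. The spindle checkpoint holds back anaphase until all kinetochores are attached, and kinesin motors shape the spindle, move chromosomes and help to separate the daughter cells. Most of these genes are transcribed in G2 and M phase, and their RNA is therefore often read as a sign of cycling cells. In the cochlear duct the prosensory cells leave the cell cycle before hair cells form, in a wave from apex to base, while mesenchyme and non-sensory cells go on dividing.

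Of the 43 genes, 26 were lower in mutant cochleas past the adjusted threshold of limma and 2 were higher, while 15 did not pass. Of all probe sets, 37.3 percent passed in either direction. The members called lower amount to 60.5 percent, against a background of 15.7 percent of all probe sets called lower. The members called higher amount to 4.65 percent, against 21.6 percent of all probe sets. These backgrounds include unnamed and dim probe sets, unlike most members. Among probe sets with 1 symbol, 20.5 percent were lower and 30.4 percent higher, where 28 members were lower and 2 higher. Among the brighter 17778 probe sets, 28.6 percent were lower and 29.6 percent higher, where 24 of 39 members were lower and 2 higher. Median scaling of the arrays turned the split of all calls from 5573 lower and 7695 higher to 6439 lower and 5062 higher, and with it 29 members were lower and 1 higher. The members' median difference was -0.55, whereas the median of all probe sets was 0.11. The groups did not overlap for 36 members that were lower in both mutant arrays than in both wild-type arrays (26.4 percent of all probe sets) and for 5 that were higher (49.7 percent of all probe sets). Of all 43 members, 9 were called lower and fell at least 2-fold, which held for 4.41 percent of all probe sets. Set against only the probe sets called lower, the 9 of 26 members stand beside 28.1 percent. In a bulk sample, fewer dividing cells and less RNA per dividing cell cannot be told apart.

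**Figure D1:**
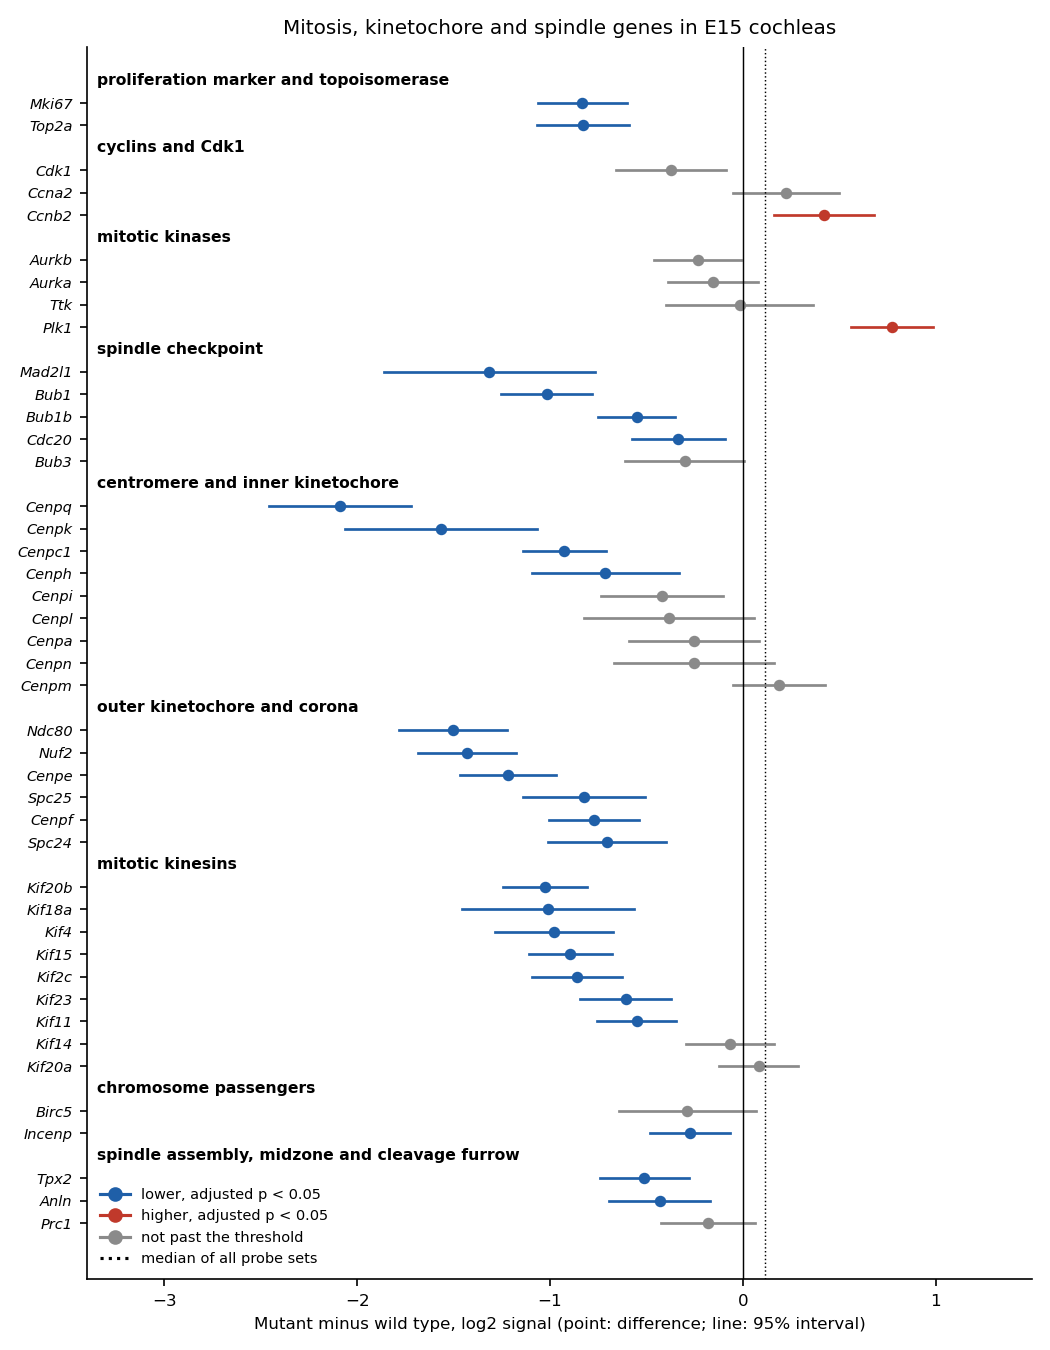
Difference between mutant and wild-type cochleas for each of the 43 genes, grouped by role (x axis, log2 signal; points are differences from limma, lines their 95% confidence intervals, and the dotted line the median of all probe sets). All 6 genes of the outer kinetochore and corona lie at -0.70 or further left, while *Plk1* (0.77) and *Ccnb2* (0.42) lie right of 0.

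**Figure D2:**
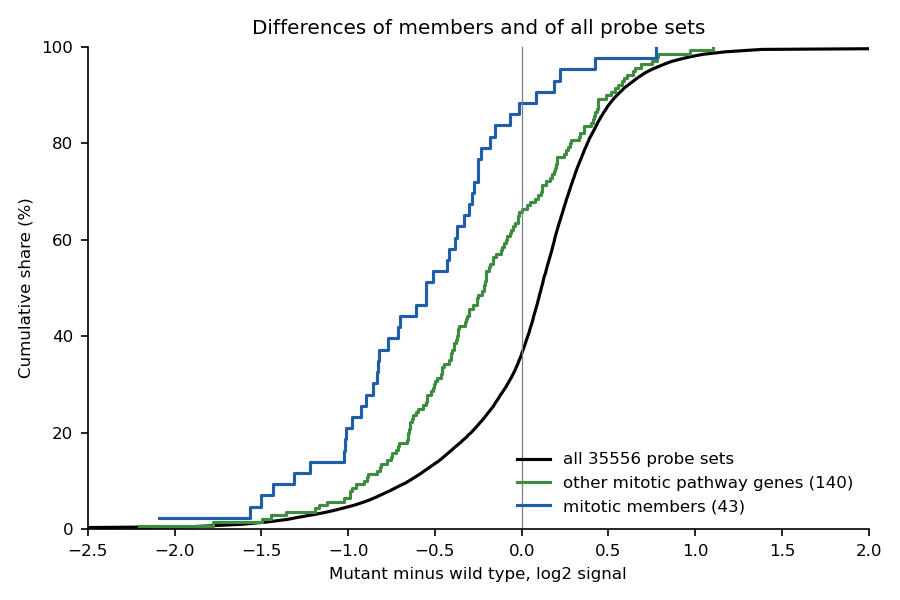
Cumulative share of features (y axis, percent) by the difference between mutant and wild type (x axis, log2 signal) for the 43 members, 140 other genes of the mitotic pathway and all 35556 probe sets. The curve of the members lies to the left, with medians of -0.55, -0.22 and 0.11 for the 3 sets.

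Promoters are shown because genes of late cell cycle are known for a pair of elements close to their start, the cell cycle homology region (CHR), read here as TTTGAA, and the CCAAT box bound by NF-Y. RefSeq promoter windows of the build GRCm38.p6, 250 bases before to 50 after a transcription start, were found for 38 of the 44 members. Both strands were searched, and a gene with several windows counts once. TTTGAA stood in 25 of the 38 (65.8 percent), against 20.2 percent of 27025 genes, and CCAAT in 29 (76.3 percent), against 41.1 percent. Both stood together in 20 members (52.6 percent, and 8.97 percent of all genes). TATAAA, the TATA box, stood in 2 members (5.26 percent, and 15.7 percent of all genes). The 100 bases before the start are given below, with TTTGAA and CCAAT in capitals on either strand (as TTCAAA and ATTGG on the other). They are from the gene with the largest decrease (*Cenpq*), from 4 others that fell, from the 2 genes that rose and from *Cdk1*, which did not pass the threshold. They were picked after the values were seen.
*Cenpq* (chr17:40934575-40934674, minus strand): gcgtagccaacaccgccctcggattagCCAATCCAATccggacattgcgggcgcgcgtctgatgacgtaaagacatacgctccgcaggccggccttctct
*Nuf2* (chr1:169531465-169531564, minus strand): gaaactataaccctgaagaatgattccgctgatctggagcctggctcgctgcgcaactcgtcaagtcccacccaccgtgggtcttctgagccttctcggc
*Kif11* (chr19:37376282-37376381, plus strand): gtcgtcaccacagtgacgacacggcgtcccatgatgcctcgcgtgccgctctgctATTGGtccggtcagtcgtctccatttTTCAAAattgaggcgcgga
*Top2a* (chr11:99024190-99024289, minus strand): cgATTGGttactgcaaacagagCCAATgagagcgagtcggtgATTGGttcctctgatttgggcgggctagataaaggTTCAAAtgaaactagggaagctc
*Cdc20* (chr4:118437344-118437443, minus strand): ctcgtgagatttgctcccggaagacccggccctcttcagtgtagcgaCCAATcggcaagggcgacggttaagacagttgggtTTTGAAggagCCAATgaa
*Ccnb2* (chr9:70421555-70421654, minus strand): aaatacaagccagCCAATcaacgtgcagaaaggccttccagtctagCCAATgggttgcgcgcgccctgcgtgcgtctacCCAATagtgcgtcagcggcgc
*Plk1* (chr7:122159335-122159434, plus strand): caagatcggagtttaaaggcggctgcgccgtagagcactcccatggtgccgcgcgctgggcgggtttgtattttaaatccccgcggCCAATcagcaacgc
*Cdk1* (chr10:69352913-69353012, minus strand): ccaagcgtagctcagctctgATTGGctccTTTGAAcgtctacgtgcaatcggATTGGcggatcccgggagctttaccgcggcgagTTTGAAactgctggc
Promoters with and without TTTGAA were both found among the genes that fell. Among the 25 measured members with TTTGAA in the window, 14 were called lower and 2 higher, with a median difference of -0.43. Among the 12 without it 9 were lower and none was higher, with a median of -1.01. With CCAAT, 15 of 28 were lower and 2 higher (median -0.485), and without it 8 of 9 were lower and 0 higher (median -1.01). Of all probe sets, 15.7 percent were lower and 21.6 percent higher. The difference between members with and without a motif was not tested. *Plk1* and *Ccnb2*, the genes that rose, both hold TTTGAA just after the start (first base at 31 and 5). *Ccnb2* also holds TTTGAA at -167 and has CCAAT at -87, -54 and -21, and *Plk1* has CCAAT at -14. *Cdc20* and *Kif11*, which fell, hold TTTGAA at -18 and -19. *Nuf2*, which fell 2.70-fold, holds neither motif in its window, and *Cenpq* holds CCAAT at -116, -73 and -68 but no TTTGAA. A match of letters does not show that a factor binds there.

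The proliferation markers fell. *Mki67* encodes Ki-67, a protein of the surface of mitotic chromosomes that is found in cycling cells. Its log2 signals were 10.77 and 10.67 on the arrays of wild type and 9.84 and 9.94 on those of mutants. Both mutant arrays were below both wild-type arrays, as for all 26 members called lower. The difference was -0.83 (standard error 0.09, 1.78-fold lower, adjusted p = 0.00477 from limma). *Top2a*, the topoisomerase that untangles sister chromatids, was at 10.41 and 10.56 in wild type and at 9.69 and 9.62 in mutants, a difference of the same size (-0.83, standard error 0.09, adjusted p = 0.00503 from limma). The other *Top2a* probe set had signals of 3.95 to 4.09 on all 4 arrays and did not pass (difference -0.10, adjusted p = 0.347 from limma).

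All 6 genes of the outer kinetochore and corona fell, with a median difference of -1.02. Of all probe sets 15.7 percent were called lower, and of the brighter ones 28.6 percent. The Ndc80 complex, the rod that holds on to microtubule ends, has 4 subunits. *Ndc80* went from 8.28 and 8.04 in wild type to 6.63 and 6.68 in mutants (difference -1.50, standard error 0.11, 2.83-fold lower, adjusted p = 0.00286 from limma). Its partner at the microtubule end, *Nuf2*, went from 8.21 and 8.40 to 6.90 and 6.84 (difference -1.43, standard error 0.10, adjusted p = 0.00277 from limma). The other pair of subunits anchors the rod on the inner kinetochore and had smaller differences. *Spc25* was at 7.97 and 8.14 in wild type and 7.35 and 7.10 in mutants (difference -0.82, adjusted p = 0.00933 from limma), and *Spc24* was at 7.60 and 7.87 against 7.08 and 6.98 (difference -0.70, adjusted p = 0.0126 from limma). The 95% intervals of *Ndc80* (-1.78 to -1.23) and *Nuf2* (-1.69 to -1.18) did not reach those of *Spc25* (-1.14 to -0.51) and *Spc24* (-1.01 to -0.40), though the difference between subunits was not itself tested. In the fibrous corona outside the kinetochore, the kinesin *Cenpe*, which carries chromosomes to the spindle equator, had signals of 8.68 and 8.76 in wild type and 7.59 and 7.42 in mutants (difference -1.22, standard error 0.10, 2.33-fold lower, adjusted p = 0.00313 from limma). *Cenpf*, a large coiled-coil protein of the same layer, had 8.81 and 8.95 against 8.14 and 8.08 (difference -0.77, standard error 0.09, adjusted p = 0.0056 from limma). For both genes all wild-type signals lay above all mutant signals, as they did for all 26 members called lower. The call of *Spc24* was lost without either mutant array (adjusted p = 0.0528 without replicate 1 and 0.0722 without replicate 2 from limma).

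In the centromere and inner kinetochore, 4 of 9 genes were lower, none was higher and 5 did not pass, with differences from -2.09 to 0.19. The share lower was 15.7 percent over all probe sets and 28.6 percent over the brighter ones. *Cenpq*, a subunit of the network that sits on centromeric chromatin, had the largest decrease of all members, from 7.59 and 7.97 in wild type to 5.67 and 5.70 in mutants (difference -2.09, standard error 0.14, 4.26-fold lower, adjusted p = 0.00277 from limma). *Cenpk* followed, from 7.08 and 7.56 to 5.90 and 5.62 (difference -1.56, standard error 0.19, 2.96-fold lower, adjusted p = 0.00621 from limma). *Cenpc1*, which encodes the protein that links centromeric nucleosomes to the outer kinetochore, had signals of 8.23 and 8.27 in wild type and 7.27 and 7.37 in mutants (difference -0.93, adjusted p = 0.00369 from limma). *Cenph*, a partner of *Cenpk*, had 6.63 and 6.99 against 6.03 and 6.17 (difference -0.71, adjusted p = 0.0209 from limma), and its call was lost without mutant replicate 1 (adjusted p = 0.0958) or replicate 2 (adjusted p = 0.0727). The histone variant *Cenpa* itself, which marks the centromere, was at 9.69 and 9.95 in wild type and 9.66 and 9.46 in mutants. That difference of -0.25 did not pass (95% confidence interval -0.59 to 0.08, adjusted p = 0.179 from limma). *Cenpi*, *Cenpl*, *Cenpn* and *Cenpm* had differences of -0.42, -0.38, -0.25 and 0.19 and did not pass either. *Cenpk* and *Cenph* lie among the dimmer probe sets, and were not tested in a run limited to the brighter ones.

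**Figure D3:**
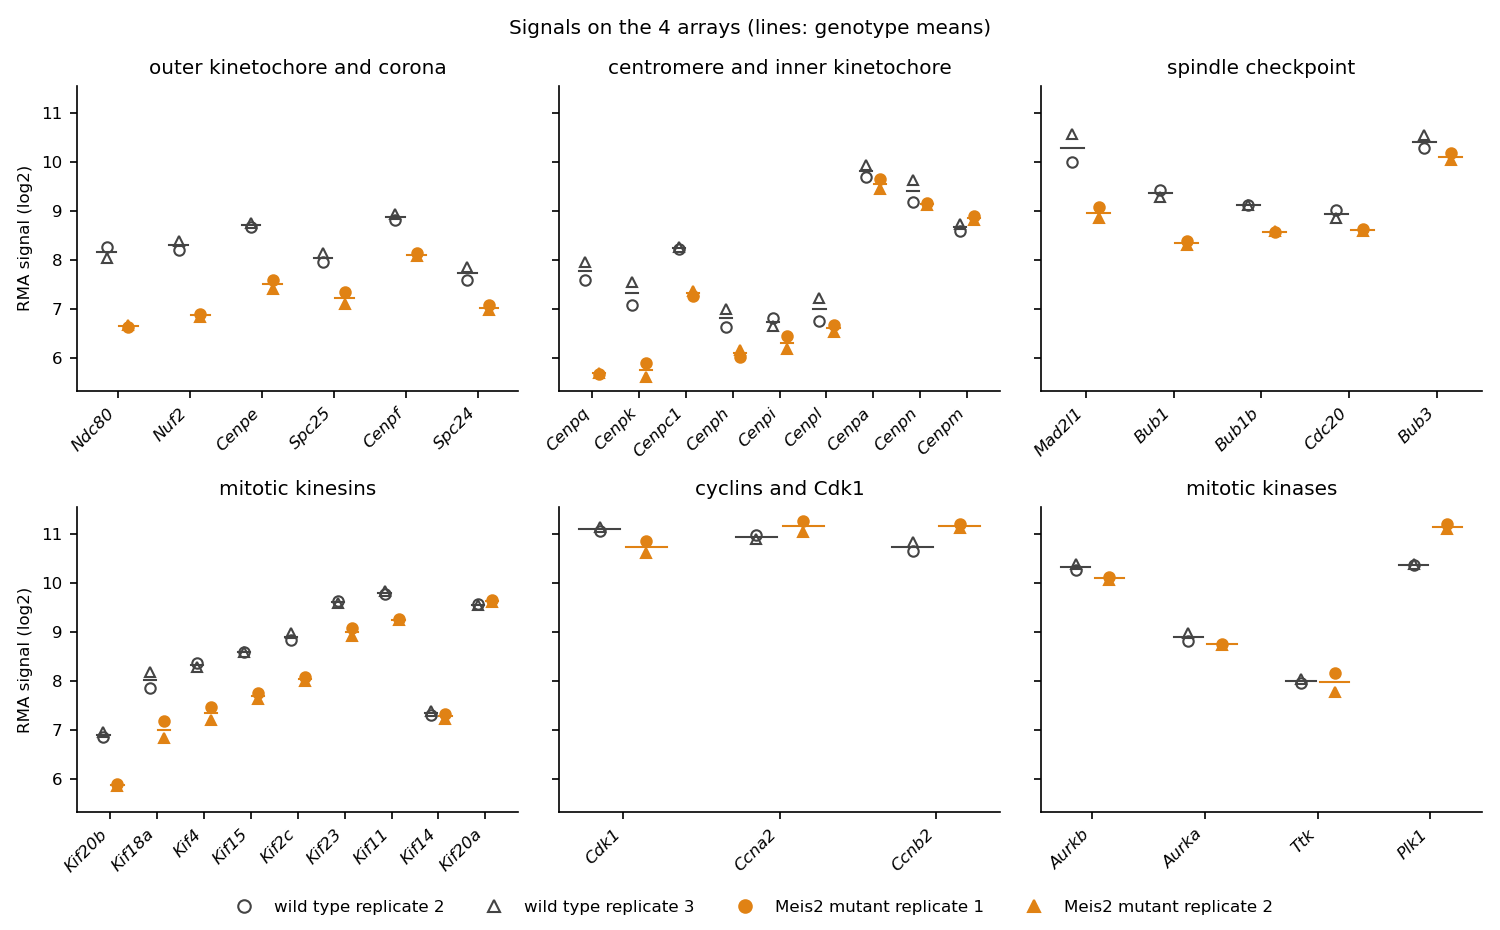
Log2 signal (y axis) on each of the 4 arrays for the members of 6 roles; open symbols are wild-type arrays, filled symbols are mutant arrays, and short lines are genotype means. Levels of different genes cannot be compared, since each has its own probes. Within a gene, the mutant arrays lie below the wild-type arrays for all 6 outer kinetochore genes and for 7 of 9 kinesins. They lie above them for *Plk1*, *Ccnb2*, *Ccna2*, *Cenpm* and *Kif20a*. Of all probe sets, 26.4 percent lay below and 49.7 percent above in this way.

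Among the spindle checkpoint genes 4 of 5 were lower, beside 15.7 percent of all probe sets and 28.6 percent of the brighter ones. *Mad2l1* encodes Mad2, which binds and restrains the activator of the anaphase promoting complex. It went from 10 and 10.57 in wild type to 9.09 and 8.85 in mutants (difference -1.31, standard error 0.21, 2.49-fold lower, adjusted p = 0.0112 from limma). The wild-type arrays of this gene lay far apart, and its call was lost without mutant replicate 2 (adjusted p = 0.0612). *Bub1*, the kinase that recruits the checkpoint to kinetochores, went from 9.43 and 9.29 to 8.38 and 8.30 (difference -1.02, standard error 0.09, adjusted p = 0.00365 from limma). Its relative *Bub1b*, which encodes BubR1, went from 9.12 and 9.13 to 8.57 and 8.59 (difference -0.55, adjusted p = 0.00808 from limma). *Cdc20*, the activator that the checkpoint holds back, was at 9.03 and 8.87 against 8.64 and 8.59, a smaller difference of -0.34 (adjusted p = 0.0454 from limma). *Bub3*, the scaffold of both Bub kinases, had a difference of -0.30 that did not pass (95% confidence interval -0.61 to 0.01, adjusted p = 0.106 from limma). The call of *Bub1b* was lost without either mutant array (adjusted p = 0.0536 and 0.0552), and that of *Cdc20* without wild-type replicate 2 (0.127), without either mutant array (0.146 and 0.187) and after repeated quantile normalization (0.124).

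Of the 9 mitotic kinesins, 7 were lower and 2 did not pass, beside 15.7 percent lower of all probe sets and 28.6 percent of the brighter ones. The 7 included motors of several jobs. *Kif20b*, which acts in cytokinesis, went from 6.86 and 6.96 in wild type to 5.90 and 5.87 in mutants (difference -1.03, standard error 0.08, adjusted p = 0.00326 from limma). *Kif18a*, which dampens the movement of chromosomes at the spindle equator, went from 7.86 and 8.20 to 7.19 and 6.84 (difference -1.01, adjusted p = 0.013 from limma, and 0.0602 without mutant replicate 2). *Kif4*, a chromosome-bound motor that is encoded on the X chromosome, had signals of 8.37 and 8.29 in wild type and 7.49 and 7.21 in mutants (difference -0.98, adjusted p = 0.00603 from limma). For these 3 motors the groups did not overlap, and the mutant signal was 1.97-fold to 2.04-fold lower. All 26 members called lower had groups that lay apart, as did 26.4 percent of all probe sets in that direction. It therefore adds nothing to a call. *Kif15*, which helps to keep spindle poles apart, was at 8.59 and 8.60 against 7.75 and 7.65 (difference -0.90, adjusted p = 0.00383 from limma). *Kif2c*, which takes microtubules apart at centromeres, was at 8.85 and 8.98 against 8.09 and 8.02 (difference -0.86, adjusted p = 0.00463 from limma). These pairs of arrays also lay apart. *Kif23*, a motor of the central spindle, was at 9.64 and 9.61 against 9.09 and 8.94 (difference -0.61, adjusted p = 0.00965 from limma). *Kif11*, the motor that pushes spindle poles apart, was the least changed of the 7, with 9.78 and 9.84 against 9.28 and 9.24 (difference -0.55, adjusted p = 0.00874 from limma). *Kif14* and *Kif20a*, both of cytokinesis, had differences of -0.07 (95% confidence interval -0.30 to 0.16) and 0.08 (-0.12 to 0.28). The other *Kif14* probe set, at 4.22 to 4.45 on all arrays, did not pass either (difference 0.17, adjusted p = 0.175 from limma). The calls were lost for *Kif23* without mutant replicate 2 (adjusted p = 0.0608) and for *Kif11* without either mutant array (adjusted p = 0.0514 and 0.0617).

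Of the 7 measured cyclins and kinases that drive mitosis, 0 were called lower and 2 were called higher by limma, where 15.7 and 21.6 percent of all probe sets were. Of the other 5, *Cdk1*, *Aurkb*, *Aurka* and *Ttk* had differences below 0 and *Ccna2* above it. In both roles 1 gene was called lower with SAM, after median scaling and at a threshold of 0.1, and the difference between roles was not tested. *Plk1*, the Polo-like kinase of mitotic entry and of kinetochore attachment, rose from 10.37 and 10.39 in wild type to 11.20 and 11.11 in mutants (difference 0.77, standard error 0.08, 1.71-fold higher, adjusted p = 0.00473 from limma). It stayed past the threshold under all alternatives tried, with differences from 0.69 to 0.85. *Ccnb2*, a B-type cyclin, rose from 10.66 and 10.84 to 11.22 and 11.12 (difference 0.42, standard error 0.10, 1.34-fold higher, adjusted p = 0.0298 from limma). Its call was lost after median scaling (difference 0.34, adjusted p = 0.0523), without wild-type replicate 2 (0.0816) and without either mutant array (0.139 and 0.0974). *Ccna2*, the cyclin of S and G2 phase, had a difference of 0.22 that did not pass (95% confidence interval -0.05 to 0.50).

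*Cdk1*, the kinase that these cyclins activate, had signals of 11.07 and 11.16 in wild type and 10.86 and 10.62 in mutants. Both mutant arrays lay lower, as for 26.4 percent of all probe sets. The difference of -0.37 fell just short of the threshold (95% confidence interval -0.66 to -0.09, adjusted p = 0.0542 from limma). It passed as lower with SAM, after median scaling (adjusted p = 0.0321), with a trended prior (0.0386), when dim probe sets were left out (0.0351) and among probe sets with 1 symbol (0.025). It did not pass after repeated quantile normalization (difference -0.29, adjusted p = 0.109), nor when any one array was left out (0.0697 to 0.223). *Aurka*, the Aurora kinase of the spindle poles, was at 8.83 and 8.98 in wild type and 8.77 and 8.74 in mutants (difference -0.15, 95% confidence interval -0.39 to 0.08, adjusted p = 0.227 from limma). *Aurkb*, the Aurora kinase of the centromere, and *Ttk*, the kinase that starts checkpoint signaling, had differences of -0.23 and -0.02 and did not pass.

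*Aurkb* works in the chromosomal passenger complex, whose scaffold *Incenp* was at 8.64 and 8.61 in wild type and at 8.32 and 8.38 in mutants. The difference of -0.27 passed by a narrow margin (standard error 0.08, adjusted p = 0.04995 from limma). It did not pass when any one array was left out (adjusted p from 0.0986 to 0.213), after repeated quantile normalization (0.145) or with a trended prior (0.0643). *Birc5*, which encodes survivin, the subunit that brings the complex to centromeres, was at 8.70 and 8.70 against 8.59 and 8.23 (difference -0.29, 95% confidence interval -0.64 to 0.07, adjusted p = 0.158 from limma). The complex therefore had small differences, all below 0, in the 3 subunits named here.

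Of the genes of spindle assembly, midzone and cleavage furrow, 2 of 3 were lower, beside 15.7 percent of all probe sets and 28.6 percent of the brighter ones. *Tpx2*, which activates Aurora A and seeds microtubules near chromosomes, was at 9.15 and 9.16 in wild type and 8.72 and 8.57 in mutants (difference -0.51, adjusted p = 0.0138 from limma, and 0.0824 without mutant replicate 2). *Anln*, the anillin of the cleavage furrow, was at 9.37 and 9.27 against 8.98 and 8.80 (difference -0.43, adjusted p = 0.0288 from limma). The groups of both genes lay apart, as they did for all 26 members called lower. The call of *Anln* was lost when any one array was left out (adjusted p from 0.054 to 0.141) and after repeated quantile normalization (0.0553). *Prc1*, which bundles microtubules in the midzone, had a difference of -0.18 that did not pass (adjusted p = 0.185 from limma).

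Each member's deviation from its wild-type mean had a median, over the 43 members, of -0.05 in wild-type replicate 2 and 0.05 in replicate 3, against -0.53 in mutant replicate 1 and -0.57 in replicate 2. Both wild-type values mirror each other because their own mean is the reference, and a median over members hides the spread of single genes. On this scale both mutant medians lay further from 0 than the wild-type medians. Mutant replicate 2 was lower than mutant replicate 1 for 36 of the 43 members, and wild-type replicate 3 was higher than wild-type replicate 2 for 31. The matching shares over all probe sets are not given here, so these counts cannot be called particular to the members. The number of members called lower was 15 without mutant replicate 2 (7.35 percent of all probe sets called lower in that run) and 19 without mutant replicate 1 (9.15 percent of all probe sets). It was 25 without wild-type replicate 2 (15.3 percent of all probe sets lower, and 1 member higher against 15.4 percent) and 24 without wild-type replicate 3 (13.1 percent). With the brighter probe sets alone, 24 of 39 members were lower and 2 higher, against 28.6 and 29.6 percent of the brighter probe sets.

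**Figure D4:**
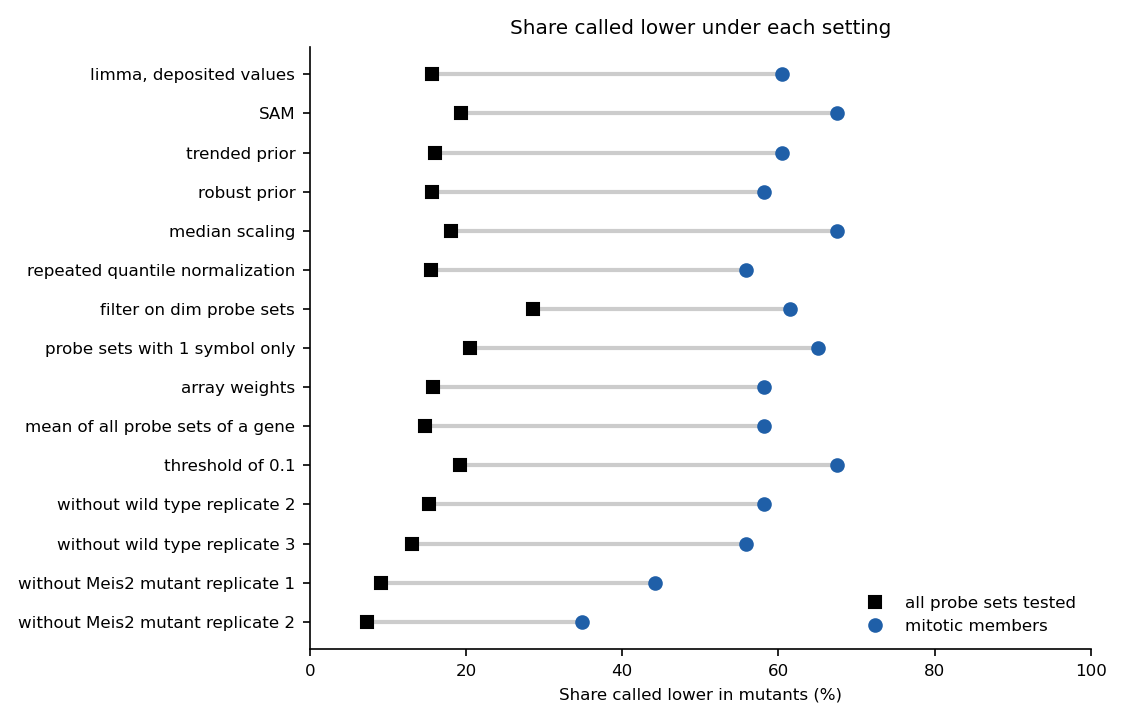
Share called lower in mutants (x axis, percent) among the mitotic members (circles) and among all probe sets tested (squares) under each way of processing (y axis). The members range from 34.9 percent, without mutant replicate 2, to 67.4 percent, and the squares from 7.35 to 28.6 percent.

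Other genes of the same pathway were taken from lists of kinetochore, condensin, cohesin, anaphase promoting complex, spindle, cytokinesis and regulatory genes. Of 140 such genes, 55 were lower, 25 were higher and 60 did not pass, with a median difference of -0.22. The share lower or higher in each list can be read against 15.7 and 21.6 percent of all probe sets, with all arrays kept. In each run that left out an array, fewer of all probe sets were called lower and fewer were called higher. A drop in such a run, in the counts above or in those of a list, therefore cannot be called particular to these genes. These counts depended on single arrays: 22 were lower and 7 higher without mutant replicate 2, 36 and 10 without mutant replicate 1, 36 and 19 without wild-type replicate 3 and 46 and 20 without wild-type replicate 2.

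Of 16 genes of cohesin and its protectors, which hold sister chromatids together, 12 were lower and 1 was higher, with a median of -0.59. Without either mutant array 8 were lower. *Smc3*, a core subunit of the ring, fell by 1.78 (adjusted p = 0.00291 from limma), *Sgo1*, the shugoshin that guards centromeric cohesion, fell by 0.99 and *Stag2*, another cohesin subunit, fell by 0.91. Of 23 genes of spindle assembly and augmin, 12 were lower and 2 higher, with a median of -0.36. Only 3 were lower without mutant replicate 2, 5 without mutant replicate 1 and 6 without wild-type replicate 3. *Haus2* and *Haus7*, subunits of augmin, which branches new microtubules from old ones, fell, with differences of -1.50 and -0.75, and *Hmmr*, a microtubule-binding protein of the spindle, fell by 1.45.

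Of 25 further kinetochore genes, 6 were lower and 3 higher, with a median of -0.21. Without mutant replicate 2 it was 2 and 0, without wild-type replicate 3 it was 4 and 2, without mutant replicate 1 it was 6 and 1, and the median was -0.04 when dim probe sets were left out. *Ska2*, which helps the Ndc80 complex to track microtubules, fell by 1.17. *Cenpx*, a histone-fold protein of the inner kinetochore, fell by 0.89, and *Mis18a*, which prepares centromeres for new Cenpa, fell by 0.66 but did not pass without mutant replicate 2 (adjusted p = 0.057 from limma). In the 8 genes of condensin, the complex that compacts chromosomes, 4 were lower and 2 higher. Without mutant replicate 2 or wild-type replicate 3 it was 2 and 1, and without mutant replicate 1 it was 3 and 1. The core subunits *Smc4* and *Smc2* fell by 1.36 and 0.96, whereas *Ncapd2*, a subunit of the same complex, rose from 9.23 and 9.22 in wild type to 10.33 and 10.34 in mutants (difference 1.10, standard error 0.08, adjusted p = 0.00279 from limma). Of 16 genes of the anaphase promoting complex and its regulators, 6 were lower and 3 higher. Both counts were 2 without mutant replicate 2 or wild-type replicate 3, and they were 3 and 2 without mutant replicate 1. Its inhibitor *Fbxo5* fell by 1.19, while its activator *Fzr1* and its subunit *Anapc2* had differences of 0.75 and 0.65 and rose.

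Of 16 genes of mitotic entry and exit, 5 were lower and 4 higher, against 1 and 2 without mutant replicate 2, 3 and 3 without mutant replicate 1 and 3 and 4 without wild-type replicate 2. *Cks2*, a small protein that binds Cdk1, had the largest decrease of any gene in these lists, from 9.84 and 9.75 in wild type to 7.76 and 7.42 in mutants (difference -2.20, standard error 0.14, adjusted p = 0.00271 from limma). The genes that rose included *Pkmyt1*, a kinase that inhibits Cdk1 (difference 0.97), and *Cdc25b*, a phosphatase that activates it (difference 0.64). Of 15 genes of cytokinesis, 5 were lower and 4 higher, among them *Shcbp1* (-0.99), *Chmp2a* (-0.82) and *Cdca3* (0.78). It was 3 and 1 without mutant replicate 2 and 4 and 1 without mutant replicate 1. Of 21 genes of the DREAM, MuvB and E2F regulators, which switch cell cycle genes on and off, 5 were lower and 6 higher, with a median of 0.09. It was 1 and 0 without mutant replicate 2, 4 and 1 without mutant replicate 1, and 4 and 4 without either wild-type array. *Tfdp2*, a partner of E2F factors, fell by 0.78, and *E2f4* and *E2f2* rose by 0.61 and 0.58. The call of *E2f4* was lost without either mutant array (adjusted p = 0.0515 and 0.0511 from limma) and that of *E2f2* without mutant replicate 2 (0.0691). *Foxm1*, the activator of many genes of G2 and M phase, was named after its value was seen. It was at 9.25 and 9.15 in wild type and at 9.61 and 9.60 in mutants (difference 0.40, adjusted p = 0.021 from limma), and its call was lost without wild-type replicate 3 (0.0646) and without either mutant array (0.103 and 0.104).

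**Figure D5:**
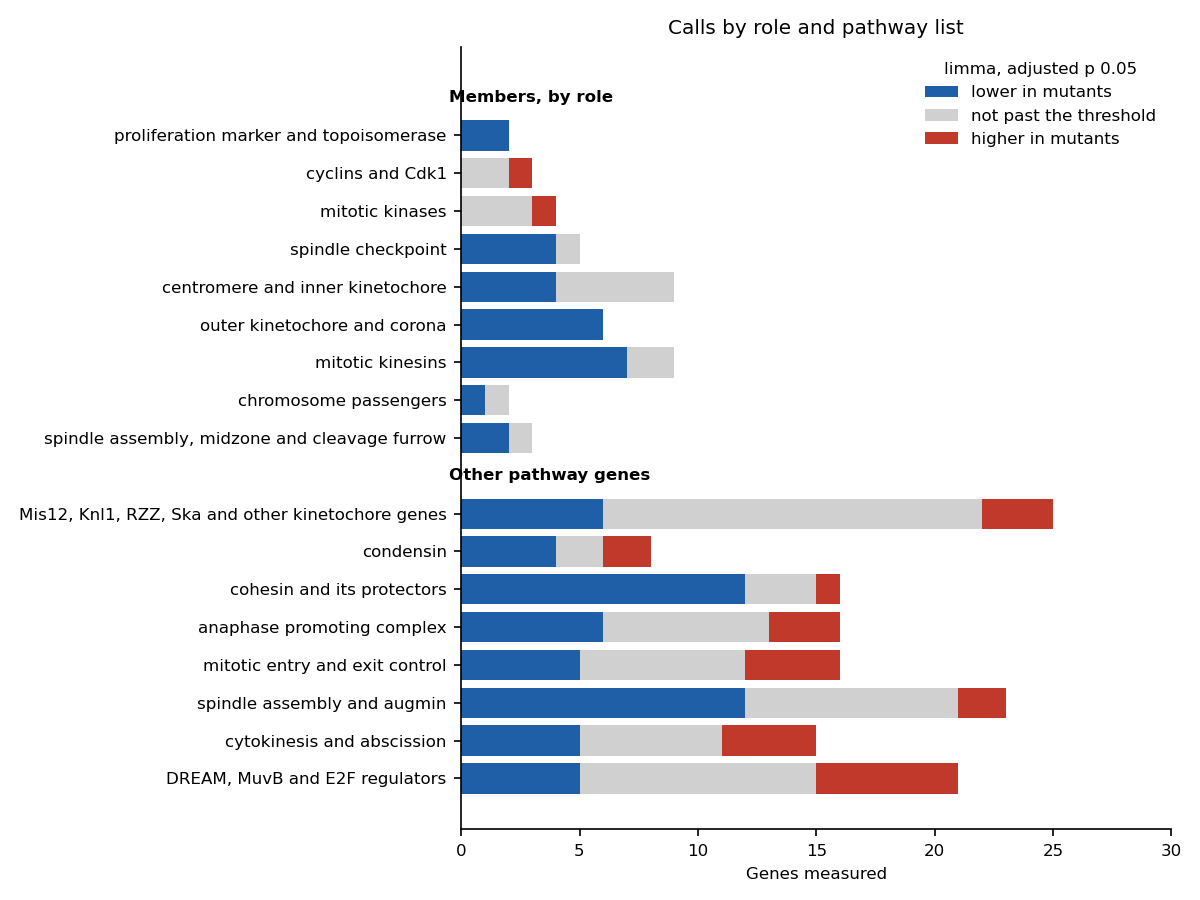
Number of genes measured (x axis) in each role of the members and in each list of other pathway genes (y axis), split into those lower in mutants, those not past the threshold and those higher, at an adjusted p of 0.05 from limma. Cohesin has 12 of 16 genes lower, and the regulators have 5 lower and 6 higher of 21. Of all probe sets, 15.7 percent were lower and 21.6 percent higher.

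Some facts of the arrays stand beside these results. *Meis2* itself had signals of 9.64 and 9.38 in wild type and 9.61 and 9.80 in mutants, but its probes may read exons that remain after deletion, and the genotype is not tested by it. *Xist*, which is transcribed from the inactive X chromosome of females, was at 5.54 and 11.51 in wild type and 11.83 and 11.84 in mutants, and *Kdm5d*, *Uty* and *Eif2s3y* of the Y chromosome were at 7.29 to 8.76 on both wild-type arrays and at 4.52 to 5.57 on the mutant arrays. Wild-type replicate 3 thus had both a high *Xist* and high Y-linked signals. Without wild-type replicate 2 the X-linked *Kif4* had a difference of -0.94 (adjusted p = 0.0185 from limma), in a run that rests on 1 wild-type array and in which the Y-linked signals still differ between genotypes. Sex and genotype cannot be told apart in these arrays. The labelled tissue was checked by its markers. *Sox2* of the prosensory domain was at 9.75 and 9.83 in wild type and 7.57 and 8.13 in mutants, and *Pou3f4* of the periotic mesenchyme was at 12.03 to 12.34 on all arrays. Of the 6 mesenchyme markers 2 were lower (*Coch*, difference -1.09, and *Twist1*, -0.70) and 1 was higher (*Col1a1*, 1.26), and the log2 of their summed signals was 13.50 to 13.69 in wild type and 13.75 to 13.96 in mutants. Markers of several cell types moved with the genotype, and others did not. Calls in the marker lists can be read against 15.7 percent lower and 21.6 percent higher among all probe sets. The log2 of the summed signals of 8 neuron markers was 13.18 to 13.20 in wild type and 12.11 to 12.19 in mutants (6 of 8 lower). That of 4 glia markers was 13.09 to 13.26 and 12.30 to 12.36 (2 lower, 1 higher). The brightest glia marker, *Fabp7* (difference -1.45), weighs most in this sum. *Cdh19* was also lower (-0.94), whereas *Sox10* was higher (0.46) and *Erbb3* had a difference of 0.14 that did not pass. The log2 sum was 14.52 to 14.62 and 14.90 to 14.93 for 6 cartilage markers (3 higher). It was 9.54 to 9.88 and 10.40 to 11.03 for 8 skeletal muscle markers (6 higher) and 10.31 to 10.57 and 10.85 to 11.17 for 4 erythroid markers (2 higher, 1 lower). The 8 hair cell markers had 9.92 to 10.10 and 10.45 to 10.54 (5 higher). The prosensory markers had 12.28 to 12.37 and 12.05 to 12.14 (3 of 8 lower, 1 higher). *Isl1*, called lower (difference -0.69), is in both the neuron and the prosensory list and counts in each. The 7 markers of the roof and non-sensory duct had overlapping sums, 13.56 to 13.66 and 13.62 to 13.64 (1 lower, 2 higher). Of 6 macrophage markers 1 was higher and 0 were lower, and of 6 endothelial markers 0 were called. The part of these cell types in the values of the mitotic genes was not tested.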

How the data were processed

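Amplified RNA of whole E15 cochleas was read on 4 Affymetrix arrays of mouse genes. The authors deposited log2 signals from robust multiarray averaging (RMA), in which background correction and normalization across arrays precede the summary of each probe set. Genome build mm8 is named in the submitters' processing notes, and tool versions are not given in the sources used here. The number of arrays limits the precision, with 2 residual degrees of freedom and 2.91 borrowed from the prior.

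All 35556 probe sets were fitted with limma 3.58.1 in R 4.3.3 (lmFit, eBayes, no filter, no covariate). The platform's annotation gave 1 symbol to 21789 probe sets, several to 1621 and none to 12146. All 43 measured members matched a current RefSeq record, with no change of symbol. The members and lists were chosen with earlier results of these data known. Given array by array are members past the threshold and the markers *Mki67*, *Top2a*, *Cdk1*, *Plk1*, *Aurka* and *Birc5*, 31 in all. *Cenpa* and *Foxm1* were added after their values were seen. Of each other list the 3 genes with the smallest p are named. Significance analysis of microarrays (SAM), the test of the methods, was coded here over the 6 possible relabelings as an alternative. These include the real grouping and its mirror image, so a pass with SAM carries little weight. As coded here, SAM called 25225 of the 35556 probe sets, most of them higher in mutants. The main limma fit called 13268, of which 5573 were lower and 7695 higher. The paper reports far fewer differentially expressed transcripts than either test here, the vast majority of them downregulated. Other alternatives were a trended or robust prior, array weights, median scaling, quantile normalization run again, the brighter or the singly named probe sets alone, gene means, a threshold of 0.1 and leaving out each array. Promoter motifs were searched with Python 3.11.15. The code was tested on simulated data. ChIP-seq and qPCR were not analysed here.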

Additional observations from a re-analysis of the deposited data

How the results depend on the processing

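No paired analysis was possible because the genotypes share only the replicate number 2, which nothing in the labels ties to a common litter or day. Of the 431 values recomputed for the 31 members that passed or were chosen as markers, 391 kept their direction and their side of the threshold, 34 dropped below it, 6 rose past it and none turned. The count of members lower stayed at 24 to 29 under the alternatives other than leaving out an array, of which 23 to 26 were among the original 26, and was 15 to 25 when an array was left out. The count of members higher was 5 with SAM (11.6 percent, where 51.6 percent of all probe sets were higher) and 1 after median scaling (2.33 percent, where 5062 of 35556 probe sets were higher), and 1 to 2 with an array left out. The median difference of members was -0.63 after median scaling, -0.49 after repeated quantile normalization and -0.58 to -0.52 with an array left out. The count of all probe sets past the threshold was 25225 with SAM, and 4611 to 10895 with an array left out. *Meis2* (0.19) passed with SAM alone. The median of the mitotic kinases (-0.085) ranged from -0.188 without mutant replicate 1 to 0.017 without mutant replicate 2, where it turned. The cause of these shifts was not tested. Where an array is left out, the single array left of that genotype borrows the spread of the other genotype. With the filter on dim probe sets *Cenpk*, *Cenph* and *Kif20b*, called lower otherwise, were not tested. Probes near the background compress differences, and the deposited values give no measure of it.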

Other observations

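Subunits of one complex differed in size and direction beyond the members described above. These genes were chosen after their values were seen. In the inner kinetochore group to which *Cenpq* belongs (difference -2.09), *Cenpu* fell by 0.65 (adjusted p = 0.0187 from limma), while *Cenpp* and *Cenpo* had differences of -0.55 and -0.26 that did not pass. In the complex that links the inner kinetochore to the Ndc80 complex, *Mis12* fell by 0.71 (adjusted p = 0.0133 from limma), whereas *Dsn1*, *Nsl1* and *Pmf1* had differences of 0.12, -0.12 and 0.20 that did not pass. In condensin, *Ncapd2* and *Ncapd3* rose (differences of 1.10 and 0.54), and *Ncapg* and *Ncapg2* fell (differences of -0.61 and -0.41). The kleisins *Ncaph* and *Ncaph2* had differences of -0.19 and 0.29 and did not pass. These calls were mostly fragile. Without either mutant array *Mis12*, *Ncapd3* and *Ncapg2* did not pass (adjusted p from 0.0652 to 0.141 from limma), and *Cenpu* and *Ncapg* did not pass without mutant replicate 2 (0.0696 and 0.0813) or wild-type replicate 3 (0.0583 and 0.0532). *Ncapd3* and *Ncapg2* also did not pass without wild-type replicate 3 (0.0622 and 0.0709), *Ncapg2* not without wild-type replicate 2 (0.0566) and *Ncapd3* not after median scaling (0.0664). *Cenpp* passed as lower after median scaling (0.0398), repeated quantile normalization (0.0381) and without mutant replicate 1 (0.0336), and *Cenpo* after median scaling (0.0312). *Ncaph2* passed as higher after repeated quantile normalization (0.0274) and with dim probe sets left out (0.0463). All 3 also passed with SAM and among probe sets with 1 symbol, and *Pmf1* passed as higher with SAM. *Dsn1* turned to -0.02 without mutant replicate 1. The cause of these differences within complexes was not tested.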
